A study of Mus musculus with 6 samples.

Results

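The genes described here encode the route by which pyruvate enters mitochondria and is oxidized. They comprise the mitochondrial pyruvate carrier, pyruvate carboxylase, the pyruvate dehydrogenase complex with its kinases and phosphatases, the enzymes of the citric acid cycle and the aspartate transaminases linked to it. The 36 genes were chosen by name, by their known function, and were found on the array through the RefSeq accession of each probe. All 36 were represented, by 56 probes, among 23462 genes on the array. Brown adipose tissue (BAT) was taken from 3 WT mice and 3 miR-22 KO mice, with 1 mouse per array. All were male and, by the methods of the study, 8 weeks old. The KO is global, so that miR-22 is missing from every cell type and organ and not only from brown adipocytes. The strain was not given in the sources used here. The comparison asks which steps of pyruvate oxidation differed in transcript level between BAT of miR-22 KO and WT mice. Mice are given below in the order of their numbers within each group.

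Pyruvate made by glycolysis is carried into mitochondria, where the pyruvate dehydrogenase complex turns it into acetyl-CoA. Kinases switch this complex off by phosphorylation and phosphatases switch it back on. The citric acid cycle then oxidizes the acetyl group and hands electrons to the respiratory chain, whose proton gradient Ucp1 dissipates as heat in BAT. A microRNA pairs with mRNAs mainly through its seed and lowers their translation or stability.

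The sequences missing from the KO mice are shown because the groups differ by them. RefSeq places both mature forms of miR-22 on the plus strand of chromosome 11 of GRCm38.p6, the 5p form at chr11:75463734-75463755 and the 3p form at chr11:75463772-75463793. They are written 5′ to 3′ with the seed, bases 2 to 8, in capitals.
mmu-miR-22-5p: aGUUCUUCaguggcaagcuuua
mmu-miR-22-3p: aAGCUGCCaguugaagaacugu
No probe for a mature form was identified, so the KO was not checked on the array. A probe for the host transcript *Mir22hg* gave 1.20, 1.69 and 1.22 in WT mice and 2.02, 2.11 and 2.23 in KO mice (scaled log2 signal), higher in all KO mice. Whether it lies inside the deleted part was not known, and it checks no label.

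Each value is the log2 of a probe's background-subtracted signal relative to the 75th percentile of the same array, so that a value of 0 lies at that percentile. Between 55.8 and 66.5% of the spots of an array were well above background, and no spot was saturated. The scanner software marks spots whose pixels are uneven or which deviate from their replicates. It marked 17.1% of the spots of WT mouse 3 and 15.1% of those of KO mouse 1, against 4.87 to 6.12% on the other arrays. The marks lay mainly among bright spots, covering 57.5% of the spots above the 75th percentile in WT mouse 3. They bear on these genes because the genes are bright, as 34 of the 36 brightest probes had a mean above the 75th percentile. By mouse, 8, 14 and 27 of these 36 probes were marked in WT mice and 25, 12 and 11 in KO mice, and 6 were marked in no mouse. All results are therefore given with marked spots kept, which allowed all 36 genes to be tested, and with marked spots left out, which left 16 genes, 8 of them with all 6 mice. Each gene was read from its brightest testable probe.

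**Figure D1:**
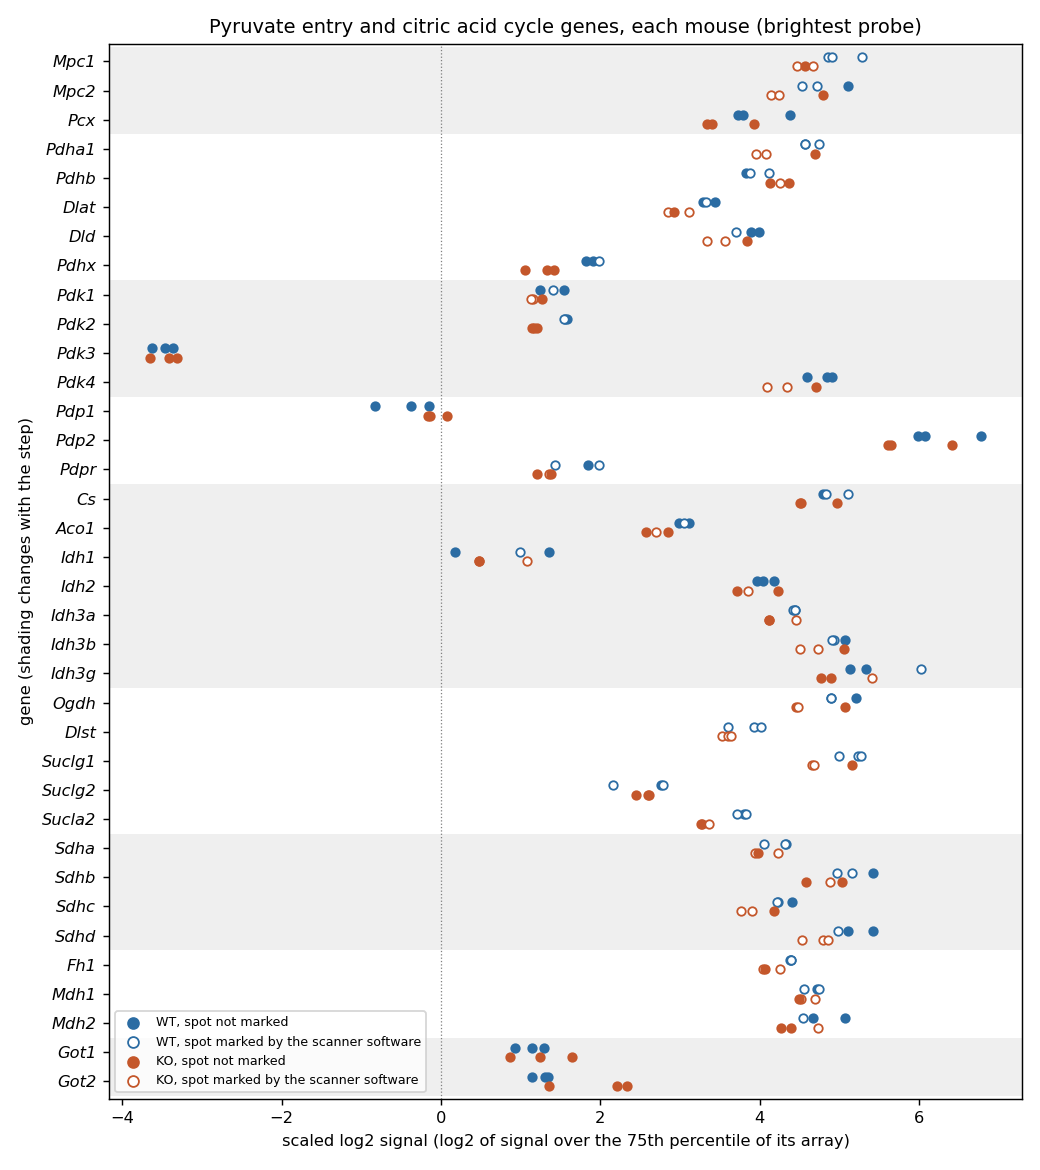
Scaled log2 signal (horizontal axis) of the brightest probe of each of the 36 genes (vertical axis, by step) in each mouse, with marked spots kept. Blue points are the 3 WT and orange points the 3 KO mice, open points are marked spots, and the dotted line is the 75th percentile of the array. Values run from -3.65 for *Pdk3* to 6.78 for *Pdp2*, and the groups overlap for most genes.

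With marked spots kept, most of the genes had a lower mean in KO than in WT mice, by about 1.2-fold, and none passed the adjusted test. Of the 36, 31 lay below 0 (86.1%), against 55.9% of all 16110 tested genes and 75.02% of the 7642 genes with a mean signal above the 75th percentile. The median log2 difference was -0.31, against -0.06 over all genes and -0.18 over these bright genes. By limma, 8 genes were lower at an unadjusted p under 0.05 (22.2%), against 11.1% of all genes and 15.7% of the bright ones. These were *Pdhx*, *Sucla2*, *Pdk2*, *Dlat*, *Mpc1*, *Sdhd*, *Aco1* and *Pdpr*. Only *Got2* was higher (2.78%), against 9.47% of all genes and 3.45% of the bright ones. No gene passed after Benjamini-Hochberg adjustment, where the smallest adjusted p by limma was 0.103, while 23 genes of the array were lower (0.143%) and 53 higher (0.329%). The groups did not overlap for 12 genes, 33.3% against 28.7% of all genes and 31.0% of the bright ones. The number called lower rested on single mice, being 16 without KO mouse 3 (13.7% of all genes) and 3 without KO mouse 2 (8.19% of all genes). "Lower" and "higher" below refer to the unadjusted p unless an adjusted p is given.

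With marked spots left out, 11 of 16 tested genes lay below 0, with a median of -0.30 against -0.03 over 14711 genes. Of the 5936 bright genes among these, 74.0% lay below 0, 12.03% were lower and 3.30% higher, with a median of -0.17. Here *Pdhx* and *Pdk2* were lower (12.5%, against 8.82% of all genes), and *Got2* and a dim probe of *Pdk1* were higher (12.5%, against 10.0% of all genes). None of the 16 passed the adjusted threshold, the smallest adjusted p by limma being 0.175, while 0.0408% of all genes were lower and 0.143% higher. SAM, the tool of the study's methods, called 3 lower and 1 higher before adjustment, against 6.19% and 8.46% of all genes. After adjustment it called no gene of the array, so that its adjusted test said nothing about these genes. The groups did not overlap for 8 genes (50%), against 31.1% of all genes and 35.7% of the bright ones. Of these, *Aco1*, *Idh3g*, *Suclg2* and *Mdh2* had 2 mice per group, and *Pdhx* and *Pdk2* had 2 WT mice. Only *Pdk1* and *Got2* kept every mouse. Fewer mice make an overlap less likely, so that this share is not read as an excess. The median was 0.14 without WT mouse 1 (11 genes), -0.00033 without WT mouse 2 (12 genes) and -0.02 without KO mouse 3 (14 genes).

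Position on the slide was partly confounded with group, since row 1 held WT mice 1 and 2 and row 2 held WT mouse 3 and all KO mice. A fit with the row as a block therefore sets WT mouse 3 alone against the KO mice. With marked spots kept it gave *Pdhx* (-0.71) and *Pdpr* (-0.67) as lower and no gene as higher, against 3.08% and 5.46% of all genes. By limma with this block *Dlat* was at -0.36 (unadjusted p = 0.147), *Aco1* at -0.35 (unadjusted p = 0.154), *Mpc1* at -0.34 (unadjusted p = 0.213) and *Sdhd* at -0.25 (unadjusted p = 0.342). *Got2* was then at 0.82 (limma, unadjusted p = 0.0852).

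**Figure D2:**
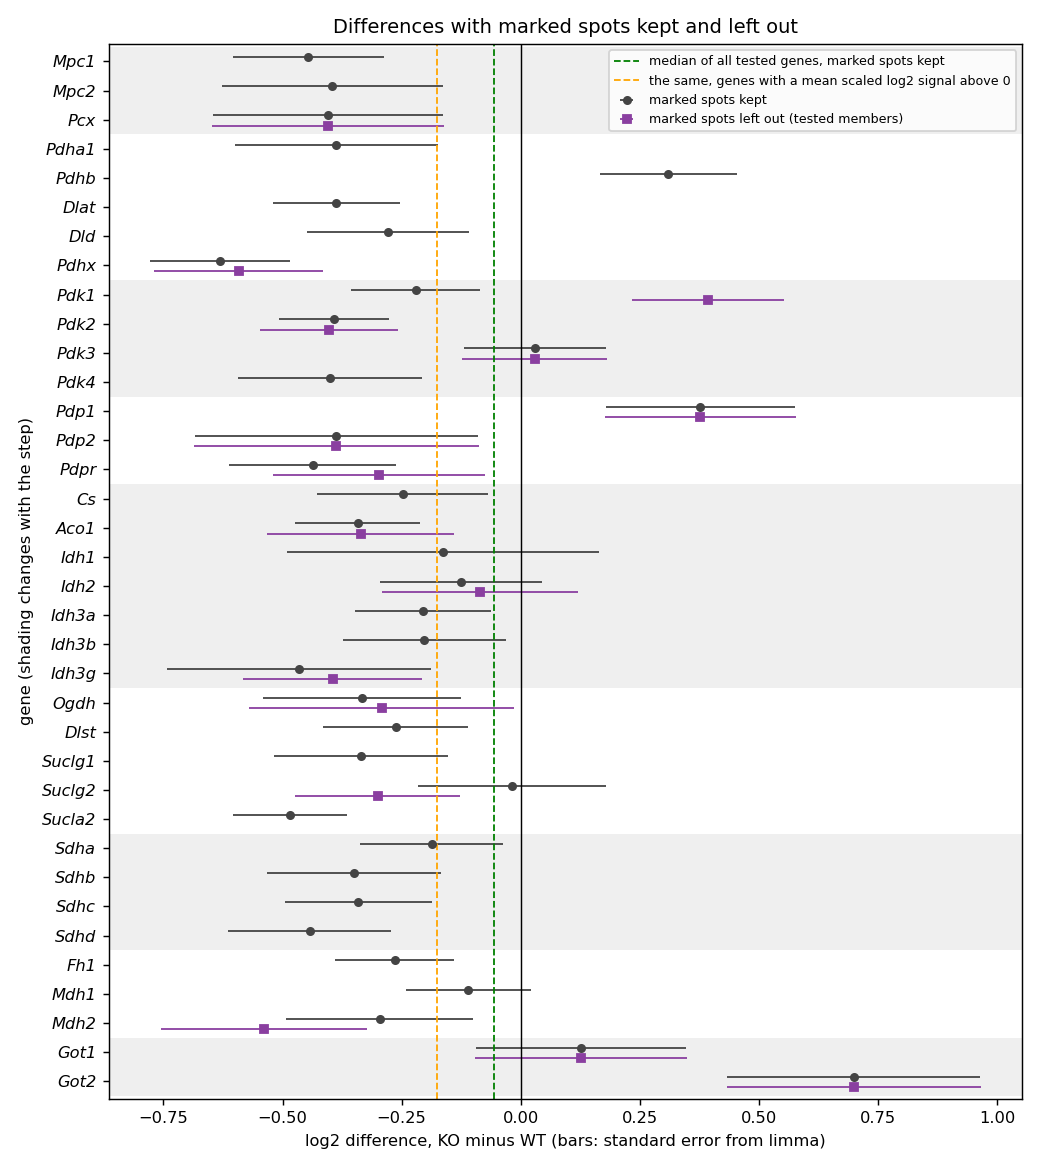
Log2 difference between KO and WT mice (horizontal axis, with the standard error from limma) for each gene (vertical axis, by step), with marked spots kept (circles, 36 genes) and left out (squares, 16 genes). The dashed lines are the medians of all tested genes (-0.06) and of genes with a mean scaled log2 signal above 0 (-0.18), both with marked spots kept, and *Pdk1* changes sign between the settings because another probe stands for it.

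The downward shift of the list depended on the scaling between arrays. After quantile normalization, with marked spots kept, 23 of 36 genes lay below 0 and the median was -0.03. The bright genes as a whole then had a median of -0.04. Under this scaling *Pdhx* and *Pdk2* were still lower, and *Got2* and *Pdhb* were higher, against 10.5% and 8.13% of all genes. The other 6 genes named as lower above no longer were. Signs turned for *Cs*, *Fh1*, *Idh2*, *Idh3a*, *Idh3b*, *Mdh1*, *Pdk3*, *Pdp2*, *Sdha* and *Suclg2*. Scaling to the median of detected probes gave 9 lower and 1 higher, against 13.3% and 8.40% of all genes, with a median of -0.34. A difference of about 0.3 in a bright gene was thus not separable here from the way the arrays were set against each other.

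**Figure D3:**
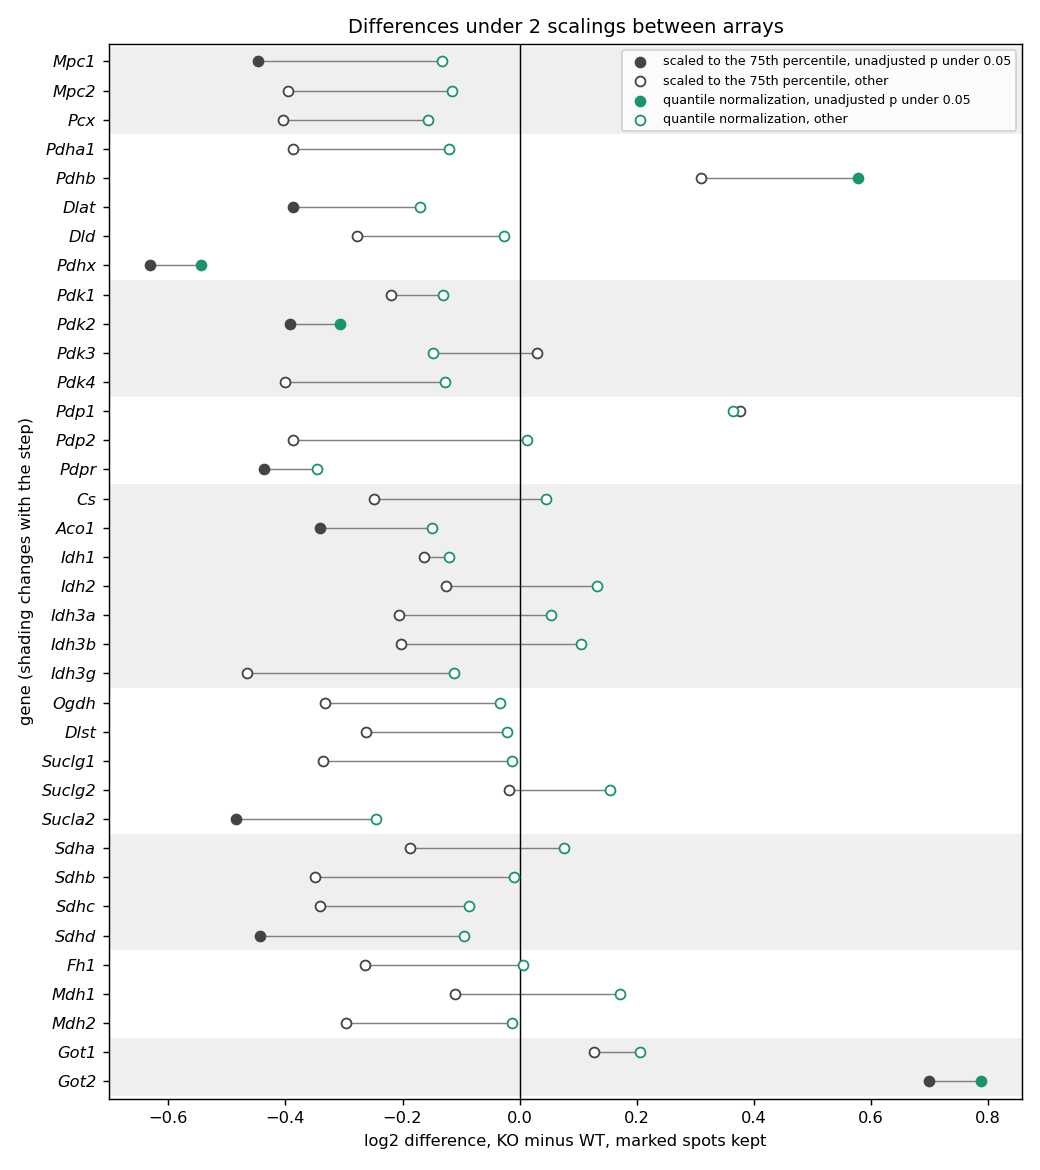
Log2 difference between KO and WT mice (horizontal axis) of the 36 genes (vertical axis, by step) with marked spots kept, scaled to the 75th percentile (dark) and after quantile normalization (green). Filled points have an unadjusted p under 0.05. The median moves from -0.31 to -0.03, and *Pdhx*, *Pdk2* and *Got2* are filled under both scalings.

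By mouse, the members were low in KO mice 1 and 2 and high in WT mouse 2. The median deviation of the 36 genes from their own means was 0.11, 0.26 and 0.06 in WT mice and -0.26, -0.22 and 0.08 in KO mice. WT mouse 2 held the highest value of 22 genes, and KO mouse 1 the lowest value of 19. KO mouse 3 thus lay among the WT mice. After quantile normalization the same medians lay between -0.04 and 0.08.

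The means of the adipocyte marker lists were also highest in WT mouse 2 and lowest in KO mice 1 and 2, with KO mouse 3 second highest. The mean of 10 general adipocyte markers, all detected in all 6 mice, was 4.57, 4.85 and 4.58 in WT mice and 4.26, 4.26 and 4.71 in KO mice. The mean of 12 brown adipocyte markers, also all detected, was 2.90, 3.19 and 3.01 in WT mice and 2.84, 2.495 and 3.03 in KO mice. Not every marker followed its list. WT mouse 2 did not hold the highest value of the general markers *Lipe* and *Cd36*, and *Lipe* was lowest there (2.47). Nor did it for the brown markers *Ppargc1a*, *Elovl3*, *Zic1*, *Ebf2*, *Prdm16* and *Slc27a2*. *Prdm16* was highest in KO mouse 1 (0.98) and *Elovl3* in KO mouse 3 (1.75). *Ucp1*, the defining uncoupling protein of BAT, gave 5.51, 5.85 and 5.53 in WT mice and 5.10, 4.999 and 5.65 in KO mice, with its spot marked in all 6. In whole tissue, fewer adipocytes and less RNA of these genes per adipocyte cannot be told apart. The markers were read only before quantile normalization, after which the medians of the 36 genes lay between -0.04 and 0.08. *Hba-a1*, an erythroid marker, gave 5.26, 5.55 and 5.25 in WT mice and 5.04, 5.16 and 5.52 in KO mice. It was thus also highest in WT mouse 2 and lowest in KO mice 1 and 2, as was *Hba-a2*, but not *Hbb-b1* or *Hbb-bt*. Whether the pattern belongs to adipocytes or to bright genes under the scaling used was not tested. Skeletal muscle markers varied far more, the mean of 20 genes running from -4.22 in WT mouse 3 to 3.41 in KO mouse 2. White adipocyte markers did not move together. Among those detected, *Mest* and *Nnat* lay above all WT mice in all KO mice. *Hoxc8* lay below, at -1.59, -1.38 and -1.36 in WT mice and -1.69, -2.01 and -2.17 in KO mice, and the others overlapped. Their mean was low and higher in all KO mice, at -3.79, -3.76 and -3.73 in WT mice and -3.40, -3.43 and -3.17 in KO mice. KO minus WT was 0.43, and 2 of 10 were detected in no mouse. Lymphocyte markers, dimmer still, had means of -4.95, -4.411 and -4.58 in WT mice and -4.10, -4.409 and -4.37 in KO mice, also without overlap, and 1 of 10 was detected in no mouse. The part of tissue composition in the differences was not tested, except by a fit with the muscle mean as a covariate. In that fit, with marked spots kept, *Pdhx*, *Pdk2*, *Sucla2*, *Mpc1* and *Sdhd* were lower and no gene of the 36 was higher, against 8.09% and 8.42% of all genes.

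**Figure D4:**
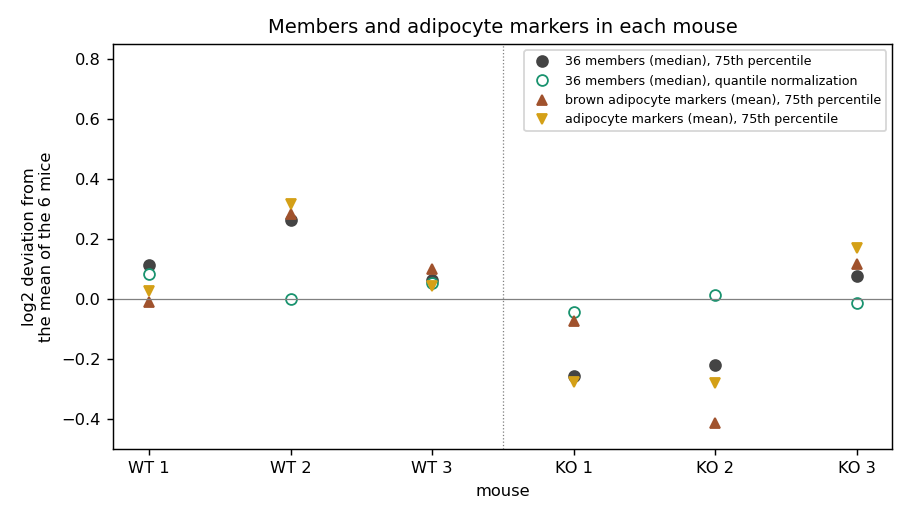
Deviation from the mean of the 6 mice (vertical axis, log2) in each mouse (horizontal axis) of the 36 genes (median, marked spots kept) under the 75th percentile scaling and after quantile normalization, with the means of 12 brown adipocyte and 10 adipocyte markers under the first scaling. KO mice 1 and 2 lie lowest for the genes (-0.26 and -0.22), KO mouse 3 lies at 0.08, and quantile normalization brings all 6 mice between -0.04 and 0.08.

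The pyruvate carrier and carboxylase had lower means in KO mice. *Mpc1* and *Mpc2* encode the subunits of the mitochondrial pyruvate carrier. *Mpc1* gave 4.86, 5.28 and 4.91 in WT mice and 4.46, 4.57 and 4.67 in KO mice. All KO mice lay below all WT mice, with a difference of -0.45 ± 0.16 (SE, n = 3 per group; limma, unadjusted p = 0.0265, adjusted p = 0.195). Its second probe gave -0.35 (unadjusted p = 0.0903, from a fit over all probes, as for other second probes). The brightest *Mpc1* probe was marked in 5 mice and the second in 3. Neither *Mpc1* nor *Mpc2* could be tested with marked spots left out. *Mpc2* (-0.40) and *Pcx*, which makes oxaloacetate from pyruvate (-0.40), had overlapping groups, KO mouse 3 lying within the WT range for both. After quantile normalization the 3 differences were -0.13, -0.11 and -0.16, and none had an unadjusted p under 0.05.

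Within the pyruvate dehydrogenase complex, *Pdhx* and *Dlat* were lower, and *Pdhb* was the subunit with a higher mean in KO mice, short of the unadjusted test under the 75th percentile scaling. *Pdhx* encodes the protein that anchors dihydrolipoamide dehydrogenase to the core of the complex. It gave 1.82, 1.91 and 1.98 in WT mice and 1.34, 1.05 and 1.42 in KO mice. The groups were separated by a gap larger than the spread within WT mice, and the lowest KO value was that of mouse 2. The difference was -0.63 ± 0.15 (SE, n = 3 per group), a 1.55-fold lower signal, with an unadjusted p of 0.00370 and an adjusted p of 0.103 by limma. With the marked spot of WT mouse 3 left out it was -0.59 ± 0.18 (unadjusted p = 0.0160, adjusted p = 0.175 by limma). After quantile normalization it was -0.54 (unadjusted p = 0.00396). *Pdhx* kept its sign and an unadjusted p under 0.05 in all 11 alternatives with marked spots kept and all 14 with them left out in which it could be tested. The authors' processed table could not be used for it, nor could the slide row and the 2 fits without WT mouse 1 or 2 once the marked spot was left out.

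*Pdhb*, the beta subunit of pyruvate dehydrogenase itself, gave 3.82, 4.12 and 3.87 in WT mice and 4.26, 4.12 and 4.36 in KO mice. KO mouse 2 and WT mouse 2 nearly touched, at 4.124 and 4.118. The difference was 0.31 ± 0.14 (SE, n = 3 per group; limma, unadjusted p = 0.0682). After quantile normalization WT mice gave 3.79, 3.84 and 3.82 and KO mice 4.55, 4.38 and 4.24. All KO mice then lay well above all WT mice. That difference was 0.58 ± 0.11 (SE), with an unadjusted p of 0.00208 and an adjusted p of 0.0829 by limma, against 8.13% of all genes that were higher under this scaling. *Pdhb* stayed higher at an unadjusted p under 0.05 in all 8 further fits on quantile-normalized values, which were added after the data were seen. The same fits kept an unadjusted p under 0.05 in 8 of 8 for *Pdhx*, 5 of 8 for *Pdk2* and 1 of 8 for *Got2*. They reuse the same mice and are no independent check. With marked spots left out it could not be tested.

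*Dlat* encodes the acetyltransferase core. It gave 3.28, 3.44 and 3.32 in WT mice and 3.11, 2.85 and 2.93 in KO mice, without overlap and with a difference of -0.39 (limma, unadjusted p = 0.0237, adjusted p = 0.187). Its second probe gave -0.57 (unadjusted p = 0.00960). Each *Dlat* probe was marked in 3 mice, and the gene could not be tested with marked spots left out. After quantile normalization the brightest probe gave -0.17 (limma, unadjusted p = 0.258) and the second -0.45 (limma, unadjusted p = 0.0296). *Pdha1*, the alpha subunit that is phosphorylated by the kinases, differed by -0.39 and *Dld*, the dihydrolipoamide dehydrogenase, by -0.28. KO mouse 3 lay within or near the WT range for both, and neither had an unadjusted p under 0.05.

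**Figure D5:**
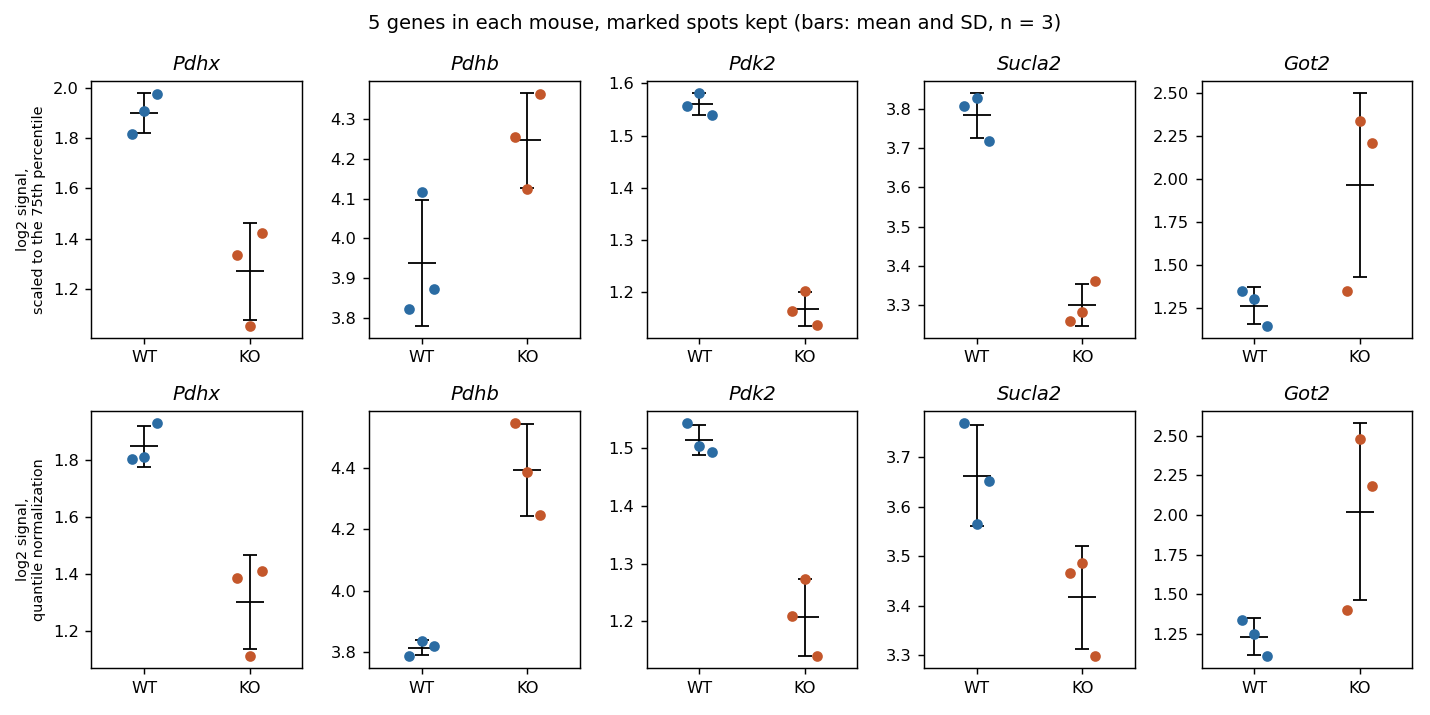
Log2 signal (vertical axis, scaled to the 75th percentile in the upper row and quantile-normalized in the lower row) of 5 genes in WT and KO mice, with marked spots kept. Points are mice, bars the mean and SD (n = 3). The vertical axes differ and do not start at 0. The *Pdhx* and *Pdk2* groups are apart in both rows, *Pdhb* in the lower row only by a clear gap, and KO mouse 1 lies at the WT level for *Got2*.

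Of the kinases that inactivate the complex, *Pdk2* was lower in KO mice. It gave 1.56, 1.58 and 1.54 in WT mice and 1.16, 1.20 and 1.14 in KO mice. The mice of each group lay within 0.1 of each other and the groups did not overlap. The difference was -0.39 ± 0.12 (SE, n = 3 per group; limma, unadjusted p = 0.0117, adjusted p = 0.145), and -0.40 ± 0.14 with the marked spot of WT mouse 3 left out (limma, unadjusted p = 0.0319, adjusted p = 0.225). After quantile normalization it was -0.31 (limma, unadjusted p = 0.0175), and 5 of the 8 further fits on these values stayed under 0.05. With the slide row as a block it was -0.37 (unadjusted p = 0.0992). Of the 14 alternatives with marked spots left out that could be fitted, 9 kept an unadjusted p under 0.05.

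*Pdk4*, the isoform induced by fasting and fatty acids, gave 4.84, 4.91 and 4.59 in WT mice and 4.09, 4.34 and 4.71 in KO mice. KO mouse 3 lay within the WT range. The difference was -0.40 ± 0.19 (SE, n = 3 per group; limma, unadjusted p = 0.0782), and -0.13 after quantile normalization. It could not be tested with marked spots left out.

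*Pdk1*, a target of hypoxia signaling, was measured by 4 probes that did not agree. The brightest gave 1.25, 1.54 and 1.41 in WT mice and 1.15, 1.26 and 1.12 in KO mice, with overlap and a difference of -0.22 (limma, unadjusted p = 0.149). It was marked in 3 mice. The brightest unmarked probe gave -2.14, -2.01 and -1.97 in WT mice and -1.39, -1.74 and -1.82 in KO mice. There all KO mice lay above all WT mice, by 0.39 ± 0.16 (SE, n = 3 per group; limma, unadjusted p = 0.0429, adjusted p = 0.251). After quantile normalization this probe gave 0.31 (unadjusted p = 0.102). The other 2 probes gave -0.04 and 0.28. The 2 bright probes thus lay below 0 and the 2 dim ones above it, and no direction was assigned to the gene.

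*Pdk3* was dim, at -3.36, -3.63 and -3.47 in WT mice and -3.41, -3.31 and -3.65 in KO mice. The groups overlapped, with a difference of 0.03 ± 0.15 (SE, n = 3 per group).

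The phosphatases that reactivate the complex showed no common direction. *Pdpr*, the regulatory subunit, gave 1.84, 1.43 and 1.98 in WT mice and 1.36, 1.38 and 1.21 in KO mice. The groups did not overlap, WT mouse 2 lying just above the KO mice. The difference was -0.44 ± 0.18 (SE, n = 3 per group; limma, unadjusted p = 0.0417, adjusted p = 0.226). With marked spots left out only a dim probe remained, at -0.30 (limma, unadjusted p = 0.224). *Pdp2*, a catalytic subunit and the brightest probe of the list, differed by -0.39 with overlap and by 0.01 after quantile normalization. The second *Pdp2* probe, at 2.64 to 3.22, gave -0.14. *Pdp1*, the other catalytic subunit, differed by 0.38, short of the unadjusted threshold, and its second probe by 0.52 (limma, unadjusted p = 0.0215). Neither *Pdp1* probe was marked. The mean of its probes gave 0.45, higher at an unadjusted p of 0.00868 with marked spots kept.

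From citrate to oxoglutarate, all 7 genes lay below 0, between -0.47 and -0.13, and only *Aco1* was lower. *Aco1* encodes the cytosolic aconitase, which also acts as an iron regulatory protein. It gave 2.98, 3.11 and 3.05 in WT mice and 2.70, 2.58 and 2.84 in KO mice, without overlap, with a difference of -0.34 ± 0.13 (SE, n = 3 per group; limma, unadjusted p = 0.0358, adjusted p = 0.214). With the marked spots of WT mouse 3 and KO mouse 1 left out, the difference was -0.34 ± 0.20 (SE, 2 mice per group; limma, unadjusted p = 0.148). The other *Aco1* probe, among the dimmest of the list, gave 0.36. After quantile normalization the brighter probe gave -0.15 (limma, unadjusted p = 0.171). Citrate synthase (*Cs*) gave -0.25, and its second probe -0.14. The subunits of the NAD-linked isocitrate dehydrogenase gave -0.21 (*Idh3a*), -0.20 (*Idh3b*) and -0.47 (*Idh3g*), and KO mouse 3 lay above at least 1 WT mouse for all of them. The NADP-linked enzymes gave -0.13 (mitochondrial *Idh2*) and -0.16 (cytosolic *Idh1*). *Idh1* varied more than the other genes of this step, from 0.18 in WT mouse 2 to 1.36 in WT mouse 1.

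From oxoglutarate to succinate, *Sucla2* had the lowest unadjusted p after *Pdhx*. It encodes the beta subunit of the ADP-forming succinyl-CoA synthetase. It gave 3.81, 3.83 and 3.72 in WT mice and 3.26, 3.28 and 3.36 in KO mice. The groups lay far apart compared with the spread within them, with SDs of 0.06 and 0.05. The difference was -0.48 ± 0.12 (SE, n = 3 per group), a 1.40-fold lower signal, with an unadjusted p of 0.00498 and an adjusted p of 0.113 by limma. After quantile normalization it was -0.25 (unadjusted p = 0.0696), still without overlap, and with the slide row as a block -0.42 (unadjusted p = 0.0731). Its spot was marked in 2 WT and 2 KO mice, so that it could not be tested with marked spots left out.

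The GTP-forming partner subunit *Suclg2* gave 2.76, 2.16 and 2.79 in WT mice and 2.60, 2.60 and 2.45 in KO mice, with overlap and a difference of -0.02. Its 3 probes did not agree, the others giving -0.28 and 0.44, and WT mouse 2 was far below the other mice on the last of them. The shared alpha subunit *Suclg1* differed by -0.34, *Ogdh*, the oxoglutarate dehydrogenase, by -0.33 and *Dlst*, its succinyltransferase core, by -0.26. None of these 3 had an unadjusted p under 0.05, and all were within 0.04 of 0 after quantile normalization.

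All 4 subunits of succinate dehydrogenase, which is also complex II of the respiratory chain, had lower means in KO mice, and only *Sdhd* was lower. *Sdhd*, a membrane anchor, gave 5.11, 5.42 and 4.98 in WT mice and 4.53, 4.80 and 4.86 in KO mice. The groups did not overlap, and the difference was -0.44 ± 0.17 (SE, n = 3 per group; limma, unadjusted p = 0.0358, adjusted p = 0.214). The *Sdhd* probe was marked in 1 WT mouse and all 3 KO mice. None of the subunits could be tested with marked spots left out. *Sdhc*, the other anchor, differed by -0.34 without overlap (limma, unadjusted p = 0.0635). The catalytic flavoprotein *Sdha* differed by -0.19 and the iron-sulfur subunit *Sdhb* by -0.35, both with overlap. After quantile normalization *Sdha* was at 0.08 and the other 3 between -0.10 and -0.01.

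Promoters were searched because estrogen-related receptors are known regulators of oxidative genes. The element TCAAGGTCA was looked for on both strands from 250 bases before to 50 after the start of each gene. RefSeq windows on GRCm38.p6 were at hand for 33 of the 36 genes (43 windows). A match was found in 1 window (2.33%), against 139 of 32851 windows of the same length (0.423%). That window belongs to *Sdhd*. The match is shown with its flanks on the plus strand of chr9:50603800-50603822, with the element in capitals. It begins at base 37 of the gene, counting its start as 1, on the strand opposite to the gene. The match is a description of letters and no site of binding.
Sdhd: agggcTCAAGGTCActctacaac

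From fumarate to oxaloacetate, the 3 genes had lower means and none was lower by the test. Fumarase (*Fh1*) differed by -0.26 (limma, unadjusted p = 0.0727) without overlap, at 4.37 to 4.39 in WT mice and 4.04 to 4.25 in KO mice. After quantile normalization the difference was 0.01. Mitochondrial malate dehydrogenase (*Mdh2*) differed by -0.30 with marked spots kept and by -0.54 with them left out (2 mice per group; limma, unadjusted p = 0.0559). The mice left out were WT mouse 3 (4.54) and KO mouse 3 (4.73), the latter the only KO mouse within the WT range. After quantile normalization, with marked spots kept, *Mdh2* differed by -0.01 (limma, unadjusted p = 0.902). Cytosolic *Mdh1* differed by -0.11, and its second probe by -0.41.

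The aspartate transaminases, which exchange amino groups between aspartate and oxoglutarate in the malate-aspartate shuttle, stood apart from the cycle in that neither lay below 0. Mitochondrial *Got2* gave 1.35, 1.30 and 1.15 in WT mice and 1.35, 2.34 and 2.21 in KO mice. KO mice 2 and 3 lay well above all WT mice, and KO mouse 1 (1.352) was level with WT mouse 1 (1.348). The difference was 0.70 ± 0.27 (SE, n = 3 per group), a 1.62-fold higher signal, with an unadjusted p of 0.0342 and an adjusted p of 0.211 by limma. No spot of *Got2* was marked, and the value was the same with marked spots left out. After quantile normalization it was 0.79 (limma, unadjusted p = 0.0290), and only 1 of the 8 further fits on these values stayed under 0.05. Without KO mouse 1 it was 1.01 (unadjusted p = 0.000668), whereas leaving out any other mouse lost the unadjusted threshold. The mean of the skeletal muscle markers was 2.43, 1.68 and -4.22 in WT mice and 0.20, 3.41 and 1.60 in KO mice. With the muscle mean as a covariate the *Got2* difference was 0.57 (unadjusted p = 0.0743). Cytosolic *Got1* gave 1.14, 1.29 and 0.93 in WT mice and 0.86, 1.64 and 1.24 in KO mice, with overlap and a difference of 0.13.

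Ratios of 2 isoforms within an array do not depend on a scaling by 1 factor per array. Quantile normalization is no such scaling, and the ratios were not tested after it. The change of 6 such log2 ratios was tested between WT and KO mice by exact permutation, two-sided, for which the smallest p with 3 against 3 mice is 0.1, so that no pair could pass. With marked spots kept, the *Got1* to *Got2* ratio was lower by -0.57 in KO mice (exact p = 0.1, adjusted over 6 pairs 0.3) and the *Sucla2* to *Suclg2* ratio by -0.47 (exact p = 0.1, adjusted 0.3). In both the groups did not overlap. The *Sucla2* to *Suclg2* ratio rested on the brightest *Suclg2* probe, which differed by -0.02. That probe was low in WT mouse 2 (2.16), against 2.76 and 2.79 in the other WT mice. The other *Suclg2* probes differed by -0.28 and 0.44, so that the size of this ratio's change depended on the probe. The ratio was not tested with them. The *Pdp1* to *Pdp2* ratio differed by 0.76 (exact p = 0.2, adjusted 0.4) and *Mdh1* to *Mdh2* by 0.19 (exact p = 0.6, adjusted 0.9). *Idh1* to *Idh2* differed by -0.04 (exact p = 0.9, adjusted 1) and *Pdk4* to *Pdk2* by -0.01 (exact p = 1, adjusted 1). With marked spots left out, 2 pairs could be compared, *Got1* to *Got2* (-0.57, adjusted over 2 pairs 0.2) and *Pdp1* to *Pdp2* (0.76, adjusted 0.2).

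Genes with more than 1 probe gave a measure of how far a probe stands for its gene. Of the 17 such genes, 13 had all probes on the same side of 0 with marked spots kept, and the other 4 were *Pdk1*, *Aco1*, *Idh2* and *Suclg2*. The remaining 19 genes, *Pdhx*, *Pdhb*, *Pdk2*, *Sucla2*, *Sdhd* and *Got2* among them, rested on a single probe.

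Genes around this route were read from a list of 42 related genes, 40 of them on the array, for comparison. They cover isoforms, assembly factors, carriers and enzymes that use pyruvate, citrate, malate or glutamate. With marked spots left out, 23 could be tested, with a median of -0.11. Of these, 5 were lower (21.7%, against 8.82% of all genes and 12.03% of the bright ones). Another 3 were higher (13.0%, against 10.0% and 3.30%). The related genes hold both bright and dim genes, so that neither share is a close match. Among the lower genes were *Slc25a1* (-1.29), the mitochondrial citrate carrier, *Acss2* (-1.05), which makes cytosolic acetyl-CoA from acetate, *D2hgdh* (-0.52), a mitochondrial dehydrogenase, and *Sdhaf1*, an assembly factor of succinate dehydrogenase. *Slc25a1* gave 2.01, 3.36 and 2.12 in WT mice and 1.06, 1.39 and 1.18 in KO mice, without overlap (limma, unadjusted p = 0.00870 with marked spots kept).

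The higher genes were *Slc25a13* (0.89), an aspartate-glutamate carrier of the same shuttle as *Got2*, *Pck2* (0.69), the mitochondrial form of phosphoenolpyruvate carboxykinase, and *Got1l1* (1.005), a relative of *Got1*. *Slc25a13* was dim, at -4.19, -4.26 and -4.30 in WT mice and -3.36, -3.20 and -3.54 in KO mice. Its groups were well apart, with an adjusted p of 0.0620 by limma. *Got1l1* was also dim, from -5.82 in WT mouse 2 to -3.75 in KO mouse 3, and was detected in 5 mice. After quantile normalization, with marked spots left out, its groups overlapped at 0.77 (limma, unadjusted p = 0.0674). With marked spots kept, *Me1*, the cytosolic malic enzyme (-1.01), *Sdhaf3* and *Ldha* were lower as well. That setting gave 8 lower (22.2%) and 3 higher (8.33%) of 36, against 11.1% and 9.47% of all genes. Among the bright genes 15.7% were lower and 3.45% higher. After quantile normalization, with marked spots left out, *Slc25a1*, *Acss2* and *D2hgdh* were among those lower and *Slc25a13* and *Pck2* higher.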

How the data were processed

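RNA from BAT of each mouse (3 WT, 3 KO) was labelled with 1 dye and hybridized to 6 Agilent mouse arrays on 1 slide. The deposited intensity of each spot came from Agilent Feature Extraction (version 11.5.1.1 in the headers, 10.7 in the submitters' notes), which subtracted the background but did not scale arrays against each other. A deposited set of log2 values for 27497 probes, whose processing is not given in the sources used here, served as an alternative. It held the brightest probe of only 11 of the 36 genes.

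Log2 of the processed signal was taken relative to the 75th percentile of all spots of the array other than controls, and replicate spots were averaged. Of 56605 probes, 33767 (59.7%) matched a gene through their RefSeq accession (GRCm38.p6). Testing required a probe to be called well above background on 3 or more arrays and to have at least 2 values in each group. The brightest such probe stood for its gene. Groups, taken from the sample labels, were tested in limma 3.58.1 with lmFit and eBayes (R 4.3.3), two-sided, at 0.05, unadjusted as in the study's methods and adjusted by Benjamini-Hochberg over all tested genes. The number of arrays limits the precision, which the standard error states. The labels number each mouse, and each was taken as 1 replicate.

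The genes, the lists and the steps were chosen with earlier results of these data known. Values in every mouse are given for the kinases, the isoform pairs with a difference, and all genes with an unadjusted p under 0.05. *Pdhb* was described in full, and *Slc25a1* and *Slc25a13* by mouse, after their values were seen. Tested on simulated data with 200 genes changed by 1.5 (log2), limma recovered 95% at an unadjusted p under 0.05 and 68% after adjustment with marked spots left out, and SAM, written out for this work, recovered 95 and 0%. The change of 1.5 is larger than any difference of the 36 genes (-0.63 to 0.70, marked spots kept). Recovery of differences of their size was not tested. Alternatives were quantile normalization, the median of detected probes, normexp (offset 50), other filters on dim probes, the values processed by the authors, the mean of probes, SAM, the methods' t-test, trend and robust eBayes, the slide row as a block, a muscle covariate and leaving out each mouse. For a mean over probes, each probe's own level was taken out first. Protein sequences were not used here, and single values of some related genes are not reported here.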

Additional observations from a re-analysis of the deposited data

How the results depend on the processing

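No paired analysis was possible because the mouse numbers in the labels are not shared between WT and KO mice. Quantile normalization without the marked spots gave 2 genes lower and 1 higher with a median of -0.054, against 10.2% and 7.99% of all genes. It turned *Idh2* to 0.11, *Pdk3* to -0.15 and *Pdp2* to 0.013. With these spots kept it gave 2 lower and 2 higher with a median of -0.030, against 10.5% and 8.13% of all genes. It then turned *Cs* to 0.046, *Fh1* to 0.0065, *Idh2* to 0.13, *Idh3a* to 0.053, *Idh3b* to 0.11, *Mdh1* to 0.17, *Pdk3* to -0.15, *Pdp2* to 0.013, *Sdha* to 0.076 and *Suclg2* to 0.15. The authors' processed values, which held 11 testable genes with marked spots left out and 15 with them kept, gave 0 lower and 1 higher (median 0.13) and 1 lower and 2 higher (median 0.014). Of all genes in these values, 11.3% were lower and 8.53% higher left out, and 11.8% and 8.52% kept. There *Aco1* was at 0.13, *Pdk3* at -0.15 and *Pdp2* at 0.014 in both settings, *Idh2* at 0.10 left out and 0.13 kept, and *Suclg2* at 0.57 left out and 0.48 kept.

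Marked spots being left out, scaling to the detected probes' median, normexp, SAM, trended robust eBayes and the methods' t-test gave 1 gene higher each, against 5.67 to 9.69% of all genes. No filter on dim probes gave 1 lower and 0 higher, against 4.22% and 7.85% of all genes. The mean of probes gave a median of -0.13, with *Aco1* at 0.12, *Idh2* at 0.045 and *Suclg2* at 0.051. Where marked spots were kept, it gave 2 higher, against 10.4% of all genes, with *Aco1* at 0.0079, *Idh2* at 0.0067, *Pdk1* at 0.10 and *Suclg2* at 0.047. Slide row as a block gave 0 lower and 0 higher of the 10 genes left (median -0.023), and 2 lower (*Pdhx* and *Pdpr*) and 0 higher with marked spots kept. The muscle covariate gave 1 lower and 1 higher left out, against 7.23% and 9.12% of all genes. It gave 5 lower and 0 higher kept, against 8.09% and 8.42%. *Got1* was at -0.0076 in both of these fits and *Suclg2* at 0.044 kept. Keeping marked spots gave 8 lower and 1 higher, and 8 of the related genes lower, against 11.1% of all genes lower and 9.47% higher. It put *Pdk1* at -0.22. The cause of these changes was not tested, beyond the other probe read for *Pdk1* and the fewer genes or mice in some settings.

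Leaving out each mouse in turn, without the marked spots, gave 0 to 2 lower, 0 to 1 higher and medians of -0.29 to 0.14. Of all genes, 5.60 to 10.3% were lower and 8.34 to 9.76% higher in these fits. *Aco1* then ranged from -0.34 to 0.48, *Suclg2* from -0.30 to 0.80, *Pdk3* from -0.042 to 0.12 and *Got1* from -0.070 to 0.32. Marked spots kept, leaving out each mouse gave 3 to 16 lower and 0 to 2 higher, against 6.96 to 13.7% and 7.10 to 8.68% of all genes. *Idh1* then ranged from -0.50 to 0.094, *Suclg2* from -0.22 to 0.091, *Pdk3* from -0.042 to 0.12 and *Got1* from -0.070 to 0.32. None of the 36 genes passed the adjusted threshold under any alternative of either setting. Over all genes, with marked spots left out, 6 were lower and 21 higher after adjustment, against 80 and 153 with probes well above background on all 6 arrays, 123 and 160 with trended robust eBayes, 58 and 50 from the authors' values, 1 and 3 after quantile normalization and 0 and 0 by SAM (911 and 1244 before adjustment). Signal over background did not limit the genes, since all 36 were detected in all 6 mice.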
